A study of Homo sapiens with 6 samples.

Results

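Collagens, laminins and the integrin receptors that bind them were followed in PANC1, a human cell line from a pancreatic carcinoma, after treatment with gemcitabine, a deoxycytidine analogue that stalls DNA replication. Members were all genes whose current symbol is that of a collagen chain, a laminin chain or an integrin alpha or beta subunit, without binding proteins or antisense genes, which gave 82 of the 20461 genes in the deposited table. They comprised 44 collagens, 12 laminins, 18 integrin alpha subunits and 8 integrin beta subunits. RNA-seq was done on cells kept for 48 h in 50 nM gemcitabine (2 libraries) or in vehicle, 0.1% DMSO (2 libraries), and DNaseI-seq on 1 library of each condition, treated in the same way per the study's text. All samples were of this cell line, with no tissue and no stroma. The table numbers the libraries of a condition with an index that the sample labels do not explain, and libraries 1 and 2 are therefore names only.

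Collagens are trimers of alpha chains. Fibrillar collagens form the fibres of connective tissue, type IV collagen forms the sheet-like network of basement membranes, and FACIT and multiplexin collagens sit on fibrils or at the border of basement membranes. Laminins are trimers of an alpha, a beta and a gamma chain and organise basement membranes under epithelia. Integrins are alpha and beta heterodimers in the cell membrane that bind these proteins and connect them to the actin cytoskeleton. In pancreatic carcinoma a dense, collagen-rich stroma surrounds the tumour cells, and the carcinoma cells themselves make basement membrane proteins and integrins.

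Most of the members were expressed, and those that changed with gemcitabine mostly rose. A mean of at least 0.1 FPKM in 1 condition was reached by 64 of the 82 members (78.0%, against 70.7% of all genes). At least 1 FPKM was reached by 50 (61.0%, against 59.9%) and at least 10 FPKM by 35 (42.7%, against 41.5%). For 13 members the mean was at least 100 FPKM (15.9%, against 8.03%). Some members reached the limit of 0.1 FPKM on few fragments. COL6A3, which was not tested, did so on 2 fragments at 0.532 FPKM in gemcitabine library 1. ITGA8 did so on 5 fragments at 0.203 FPKM in gemcitabine library 2. FPKM is a fragment count corrected for transcript length and for library depth. Levels of different genes set side by side in FPKM depend on the length that the authors' software used. The length implied by fragments, depth and FPKM was 0.27 of the main transcript's for LAMA5 and 0.34 for ITGB1. For COL4A1 it was 0.94 and for COL4A6 1.00. Of the 71 members that had 10 fragments or more in all, 11 were called higher with gemcitabine (15.5%, against 5.69% of the 14854 genes tested) and 0 were called lower (against 4.42%). A call required an adjusted p under 0.05 (Benjamini-Hochberg adjustment over the quasi-likelihood test of edgeR), a fold change over 1.5, at least 0.1 FPKM on average in 1 condition and a difference of mean FPKM of at least 1. On the lower side, 7 members had an unadjusted p under 0.05 (9.86%, against 24.1% of all genes), and DESeq2 also called 0 lower. By the adjusted p alone, 25 members were higher (35.2%, against 18.5% of all genes) and 5 were lower (7.04%, against 20%), and with library totals in place of TMM scaling the split was 29 to 2. The libraries of the conditions did not overlap for 36 members that were higher (50.7%, against 35% of all genes) and 12 that were lower (16.9%, against 34.7%). Without gemcitabine library 2, 6 members were called higher and 2 lower, and the calls that were lost, among them COL15A1, LAMA4, ITGAX and ITGB4, kept an adjusted p under 0.05 and missed the criteria on fold or FPKM. By the adjusted p alone there were 16 higher and 1 lower without vehicle library 1, 12 and 0 without vehicle library 2, and 23 and 11 without gemcitabine library 2. The adjusted p of COL2A1, LAMA5 and LAMC1 was 0.05 or more in 8 of 12 alternatives, that of COL8A2, ITGA2 and LAMB2 in 7 of 12 and that of ITGA10 in 7 of 11.

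The counts by family were as follows. Among the tested integrins, 13 of 25 rose and 0 fell, among the laminins 4 of 11 rose and 2 fell, and among the collagens 8 of 35 rose and 3 fell, all by the adjusted p, which 18.5% of all genes passed as higher and 20% as lower. The median log2 fold change was 0.41 over 17 integrin alpha subunits, 0.45 over 8 beta subunits, 0.14 over the collagens and -0.04 over the laminins, while that of all genes tested was 0.01. With library totals as the scaling, the median of all genes was 0.12, that of the members moved from 0.26 to 0.37, and that of the laminins turned to 0.07. The difference between the families was not tested.

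**Figure D1:**
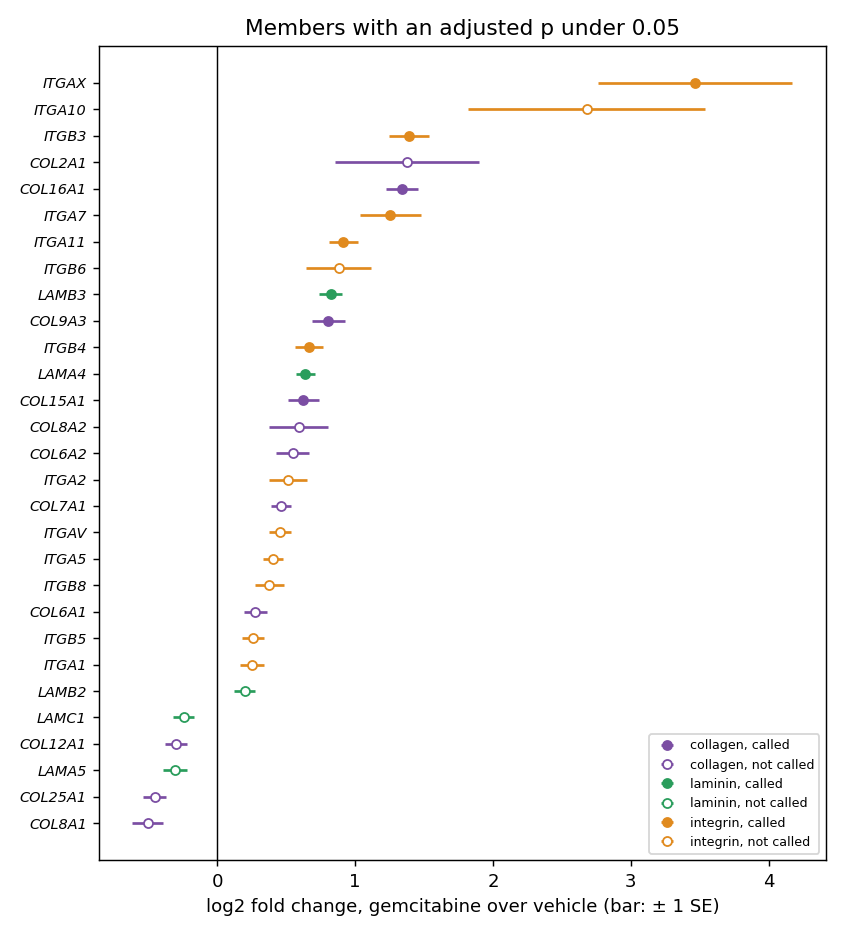
Log2 fold change with gemcitabine over vehicle for 29 members with an adjusted p under 0.05, with bars of 1 standard error from the fit over 2 libraries per condition, and filled points for 10 members called by all criteria. Of the 29, 24 lie to the right of zero and 5 to the left, and the widest bars belong to ITGAX, ITGA10 and COL2A1, which had few fragments.

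Fragments on genes numbered 15153593 and 15766237 with vehicle and 13194533 and 13275457 with gemcitabine. A limit of 3 fragments was set for an observed 0, and came to 0.190 to 0.227 CPM (counting error only). The members took 1.43% to 1.67% of all fragments. The carcinoma label was checked against 7 markers, of which KRT7, KRT8, KRT18 and VIM were at 336 FPKM or more in every library, KRT19 at 3.05 to 6.91 FPKM, EPCAM at 2.09 to 4.29 FPKM and CDH1 under 1 FPKM. Leukocyte markers other than ITGB2 were at 9 fragments or fewer in every library, with CD3E at 0 throughout. The summed level of 4 endothelial markers was 0.127 and 0.176 FPKM with vehicle and 0.356 and 0.365 FPKM with gemcitabine. Of these, VWF rose (log2 fold change 2.01) from 8 and 9 fragments to 34 and 30. PECAM1, also on the endothelial list, was not found by its current symbol and was not assessed. Of 9 fibroblast markers 6 reached 1 FPKM, with PDGFRA and COL1A2 at 0 or near it, and their summed level, mostly COL1A1 and COL3A1, was 1406 to 1503 FPKM with vehicle and 1658 to 1887 FPKM with gemcitabine. Within that list THY1, FAP and LUM rose, while DCN (log2 fold change -0.23), POSTN, COL1A1 and COL3A1 did not pass. Of 5 pericyte and smooth muscle markers ACTA2, DES and CSPG4 rose, while RGS5 (-0.93) and MYH11 (0.14) did not pass, with a summed level of 64.8 to 67.6 FPKM with vehicle and 106 to 119 FPKM with gemcitabine. Among the 7 carcinoma markers KRT19 (log2 fold change 1.13), KRT8 (0.29) and KRT18 (0.27) rose by the adjusted p, and KRT7 fell (-0.18). EPCAM (-0.45), CDH1 (1.10) and VIM (0.03) did not pass. The markers that rose did so in the direction of the called members, and their part in the result was not tested. In such bulk RNA, fewer cells of a kind and less RNA per cell cannot be told apart.

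Fibrillar collagens, which make up tendon, skin and scar tissue, gave the highest levels of all members. COL1A1, the main chain of type I collagen, was at 864 and 867 FPKM with vehicle and at 987 and 1099.8 FPKM with gemcitabine. Its fragments numbered 62075 and 62658 against 56723 and 61229. The partner chain of type I collagen, COL1A2, had 0 and 3 fragments with vehicle and 3 and 0 with gemcitabine. The most abundant member was therefore seen with its partner chain at 3 fragments or fewer in each library. COL3A1, the chain of type III collagen, was at 486 and 581 FPKM with vehicle and at 573 and 693 FPKM with gemcitabine. COL1A1 and COL3A1 together took 44% to 45.2% of the fragments of all members in each library. COL5A1, which regulates the width of type I fibrils, was at 136 and 124 FPKM with vehicle and at 122 and 144 FPKM with gemcitabine. None of these passed the test: the log2 fold changes, computed on TMM-scaled fragments, were 0.03 ± 0.07 (SE) for COL1A1, 0.11 ± 0.09 for COL3A1 and -0.09 ± 0.08 for COL5A1, and the conditions overlapped on that scale for each. COL5A2, the neighbour of COL3A1 on chromosome 2 with the 3′ ends facing each other, was far lower, at 0.594 and 1.47 FPKM with vehicle and 1.04 and 0.849 FPKM with gemcitabine. COL27A1 stood at 6.91 to 8.64 FPKM with no call. COL2A1, the collagen of cartilage, rose from 8 and 6 fragments to 11 and 23, a ratio of 2.63 after scaling with a 95% interval of 1.37 to 5.30 from counting alone and an adjusted p of 0.0496. The remaining fibrillar genes, COL5A3, COL11A1, COL11A2 and COL24A1, stayed under 1 FPKM.

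**Figure D2:**
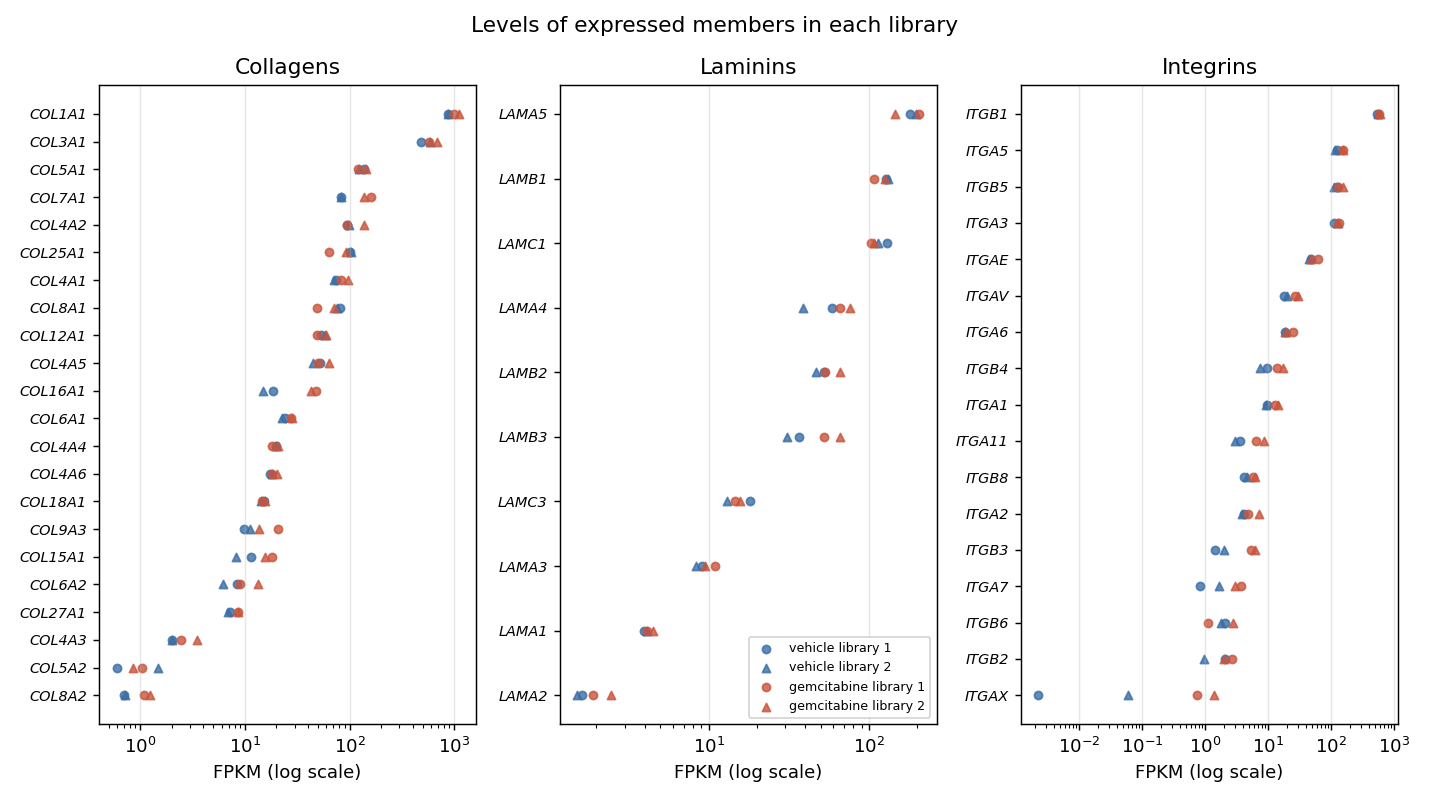
FPKM on a log scale in each of the 4 RNA libraries for 49 members with a mean of at least 1 FPKM in 1 condition, by family and ordered by their mean. COL1A1, COL3A1 and ITGB1 stand at the top of their panels, and the vehicle and gemcitabine points are apart for COL16A1, LAMB3, ITGA11, ITGB3 and ITGAX.

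Type IV collagen, the network collagen of basement membranes, did not pass the test for any of its chains. The 6 genes of type IV collagen lie in 3 pairs that are transcribed away from each other from neighbouring start sites. The starts of COL4A1 and COL4A2 are 127 bases apart on chromosome 13 (GRCh37), those of COL4A4 and COL4A3 419 bases apart on chromosome 2, and those of COL4A6 and COL4A5 1416 bases apart on the X chromosome. Bases between the genes of each pair are shown because they lie between the start sites of both, on the plus strand of GRCh37. For COL4A1 and COL4A2, whose annotated transcripts overlap, they are the bases between the main starts that no exon covers (chr13:110959505-110959604), for COL4A4 and COL4A3 all 170 bases between the genes (chr2:228029170-228029339) and for COL4A6 and COL4A5 the 300 bases next to COL4A5 of the 340 between the genes (chrX:107682768-107683067). Capitals mark CCAAT and GGGCGG on either strand.
COL4A1/COL4A2: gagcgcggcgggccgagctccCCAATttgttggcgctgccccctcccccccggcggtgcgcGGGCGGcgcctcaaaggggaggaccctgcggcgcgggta
COL4A4/COL4A3: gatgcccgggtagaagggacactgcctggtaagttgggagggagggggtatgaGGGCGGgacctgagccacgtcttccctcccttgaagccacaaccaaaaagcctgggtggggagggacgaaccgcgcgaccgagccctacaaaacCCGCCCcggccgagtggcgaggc
COL4A6/COL4A5: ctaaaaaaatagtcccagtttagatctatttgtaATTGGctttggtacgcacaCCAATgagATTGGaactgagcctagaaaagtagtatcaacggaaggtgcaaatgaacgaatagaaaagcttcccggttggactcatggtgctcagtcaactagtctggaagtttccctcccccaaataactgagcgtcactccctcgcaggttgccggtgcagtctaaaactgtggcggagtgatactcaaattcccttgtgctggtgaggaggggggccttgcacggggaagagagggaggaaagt
These stretches are 78% GC with 14 CpG in 100 bases, 65.9% GC with 12 CpG in 170 bases and 48.3% GC with 9 CpG in 300 bases. The first holds 1 CCAAT and 1 GGGCGG, the second 2 GGGCGG and no CCAAT, and the third 3 CCAAT and no GGGCGG.

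COL4A1 and COL4A2, the chains of the type IV network found under nearly all epithelia, were at like levels. COL4A1 was at 73.7 and 70.8 FPKM with vehicle and at 82.3 and 96.9 FPKM with gemcitabine, and COL4A2 at 94.2 and 98.4 FPKM with vehicle and at 94.9 and 136 FPKM with gemcitabine. COL4A2 exceeded COL4A1 by 1.15 to 1.41 times in each library. The pair on chromosome 2, whose products join COL4A5 in the network of the kidney filter, was unequal. COL4A4 was at 20 and 19.9 FPKM with vehicle and 18.1 and 20.95 FPKM with gemcitabine, whereas COL4A3 was at 2.02 and 2.01 FPKM with vehicle and 2.47 and 3.46 FPKM with gemcitabine, so that COL4A4 was 6.06 to 9.93 times as high. COL4A5 was at 51.7 and 45.2 FPKM with vehicle and 49.9 and 63.7 FPKM with gemcitabine. COL4A6 was at 17.2 and 18.2 FPKM with vehicle and 18.03 and 20.3 FPKM with gemcitabine, a ratio in FPKM of 2.48 to 3.15. The size of this ratio depends on the implied length, which was 0.50 of the main transcript's for COL4A5 and 1.00 for COL4A6. In fragments COL4A5 had 2487 and 2722 with vehicle and 2249 and 2685 with gemcitabine. COL4A6 had 1696 and 1841 with vehicle and 1643 and 1937 with gemcitabine. None of the 6 passed the test, with log2 fold changes between -0.14 and 0.13.

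COL8A1, a short-chain network collagen known from vessels and the eye, fell, while its partner chain COL8A2 rose at a much lower level. COL8A1 was at 80.5 and 76.2 FPKM with vehicle and at 49.3 and 71.3 FPKM with gemcitabine, a log2 fold change of -0.51 ± 0.11 (SE, adjusted p = 0.00216). The gemcitabine libraries were both below the vehicle libraries but differed from each other, and the log2 fold change was -0.28 without gemcitabine library 1 and -0.76 without gemcitabine library 2. The adjusted p of COL8A1 was 0.05 or more in 6 of 12 alternatives, among them DESeq2 (0.101) and each vehicle library left out (0.0829 and 0.0780). The log2 fold change of COL8A2 was 0.59 (adjusted p = 0.0396) at 0.707 to 1.23 FPKM. COL10A1, the network collagen of growth-plate cartilage, had 3 to 7 fragments.

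Of the beaded filament collagens 2 of 3 tested rose by the adjusted p, where 18.5% of all genes did, and so did the anchoring fibril collagen. COL6A1 was at 24.1 and 22.4 FPKM with vehicle and 27.6 and 27.9 FPKM with gemcitabine (log2 fold change 0.28, adjusted p = 0.0152), and its neighbour COL6A2 at 8.46 and 6.23 FPKM with vehicle and 8.98 and 13.4 FPKM with gemcitabine (log2 fold change 0.55, adjusted p = 0.0020). Without vehicle library 2 the adjusted p was 0.242 for COL6A1 and 0.0745 for COL6A2, where the log2 fold change of COL6A1 was 0.18, and without gemcitabine library 2 the log2 fold change of COL6A2 was 0.35. The third chain of the usual type VI trimer, COL6A3, had 3 and 3 fragments with vehicle and 2 and 0 with gemcitabine, and the neighbours COL6A5 and COL6A6 had 0 to 7. COL7A1 forms the anchoring fibrils that tie the basement membrane of skin to the tissue below. It was at 83.7 and 82.5 FPKM with vehicle and at 161 and 138 FPKM with gemcitabine, with a log2 fold change on TMM-scaled fragments of 0.46 ± 0.08 (SE, adjusted p = 0.00024), which did not reach the fold criterion. On FPKM the difference of COL7A1 was larger than on fragments, and limma on log2(FPKM + 1) with a filter on low values did call it. Over all settings its log2 fold change was between 0.36 and 0.84.

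Among the fibril-associated collagens that passed the adjusted p, COL16A1 changed most. COL16A1, a minor FACIT collagen found with fibrils and near basement membranes, was at 18.4 and 15.01 FPKM with vehicle and at 47.4 and 42.9 FPKM with gemcitabine. Its TMM-scaled level went from 20.8 and 22.1 CPM to 61.3 and 47.5 CPM, a log2 fold change of 1.34 ± 0.11 (SE, adjusted p = 8.67e-07). COL9A3, a chain of the type IX collagen of cartilage, went from 12.7 and 14.3 CPM to 25.6 and 21.6 CPM (log2 fold change 0.81 ± 0.12, adjusted p = 0.000124), while its partners COL9A1 and COL9A2 had 0 to 13 fragments. The exons of COL9A3 share 155 bases with TCFL5 on the other strand, and without strand information reads there cannot be told apart. COL12A1, the abundant FACIT collagen here, was at 53.6 and 57.9 FPKM with vehicle and 48.6 and 59.0 FPKM with gemcitabine, values that overlap, while its TMM-scaled level was 481 and 510 CPM against 367 and 439 CPM (log2 fold change -0.30 ± 0.08, adjusted p = 0.00943). Its adjusted p was 0.05 or more in 6 of 12 alternatives, among them library totals (0.0580), each vehicle library left out (0.0945 and 0.194) and limma on FPKM, and its log2 fold change was -0.18 without gemcitabine library 1 and -0.43 without gemcitabine library 2. COL14A1, COL19A1, COL20A1, COL21A1 and COL22A1 were under 1 FPKM.

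Of the multiplexins, which carry anti-angiogenic fragments at their ends, COL15A1 rose from 47.1 and 40.4 CPM to 58.6 and 76.3 CPM (log2 fold change 0.62 ± 0.11, adjusted p = 0.000504). Without vehicle library 2 the adjusted p of COL15A1 was 0.0545. COL18A1, the source of endostatin, stayed between 14.3 and 15.5 FPKM in all libraries. Of its 6771 exon bases, 1316 are shared with SLC19A1 on the other strand, where reads cannot be told apart. Of the transmembrane collagens COL25A1, described in neurons and developing muscle, was the one above 1 FPKM. It was at 101 and 104 FPKM with vehicle and 63.3 and 93.1 FPKM with gemcitabine, with a log2 fold change of -0.45 ± 0.08 (adjusted p = 0.000631) and no overlap of the conditions. Its log2 fold change was -0.32 without gemcitabine library 1 and -0.59, past the fold criterion, without gemcitabine library 2. Its adjusted p was 0.0572 without vehicle library 2 and 0.192 to 0.367 with limma on FPKM. The hemidesmosomal collagen COL17A1 had 0 to 3 fragments, and COL13A1, COL23A1, COL26A1 and COL28A1 were under 1 FPKM.

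Of 11 tested laminin chains 4 rose and 2 fell by the adjusted p, where 18.5% of all genes rose and 20% fell. LAMA5, LAMB1 and LAMC1, which combine in the laminin of mature basement membranes, had the highest levels. LAMA5 was at 180 and 195 FPKM with vehicle and at 206 and 146 FPKM with gemcitabine, LAMB1 at 128 and 131 FPKM with vehicle and 107 and 126 FPKM with gemcitabine, and LAMC1 at 130 and 113 FPKM with vehicle and 103 and 107 FPKM with gemcitabine. On TMM-scaled fragments LAMA5 and LAMC1 fell by little, with log2 fold changes of -0.31 ± 0.09 (SE, adjusted p = 0.0124) and -0.24 ± 0.08 (adjusted p = 0.0227), and LAMB1 did not pass (-0.13 ± 0.09). The log2 fold change of LAMA5 was -0.47 without gemcitabine library 1 and -0.15 without gemcitabine library 2, and that of LAMC1 was -0.13 (adjusted p = 0.0511) and -0.36, while DESeq2 gave LAMA5 an adjusted p of 0.147. LAMB3, a beta chain of the laminins of epithelial adhesion, rose. It was at 36.5 and 30.7 FPKM with vehicle and at 52.6 and 66.0 FPKM with gemcitabine, with a log2 fold change of 0.82 ± 0.08 (adjusted p = 3.24e-06). LAMA3, its alpha partner, was at 8.37 to 11.03 FPKM and did not pass (-0.18 ± 0.08, adjusted p = 0.0819). LAMB3 was thus at several times the level of LAMA3 in FPKM in every library.

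LAMA4, the alpha chain of the laminins of vessels and mesenchyme, rose. It was at 59.0 and 38.6 FPKM with vehicle and 66.0 and 76.1 FPKM with gemcitabine, and its TMM-scaled level of 163 and 157 CPM went to 239 and 261 CPM (log2 fold change 0.64 ± 0.07, adjusted p = 7.00e-06). The ratio of LAMA5 to LAMA4 in FPKM was 3.06 and 5.06 with vehicle and 3.13 and 1.92 with gemcitabine. The implied length was 0.27 of the main transcript's for LAMA5 and 0.51 for LAMA4. LAMB2, the alternative beta chain of kidney and synapse laminins, was at 52.1 and 46.9 FPKM with vehicle and 53.0 and 66.3 FPKM with gemcitabine, and rose by a log2 fold change of 0.20 (adjusted p = 0.048). LAMA1, LAMA2 and LAMC3 were at 3.93 to 4.50, 1.52 to 2.46 and 12.9 to 18.2 FPKM with no call. The FPKM of LAMA2 rested on 16 and 19 fragments with vehicle and 22 and 22 with gemcitabine. LAMB4, the neighbour of LAMB1, had 0 to 2 fragments.

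**Figure D3:**
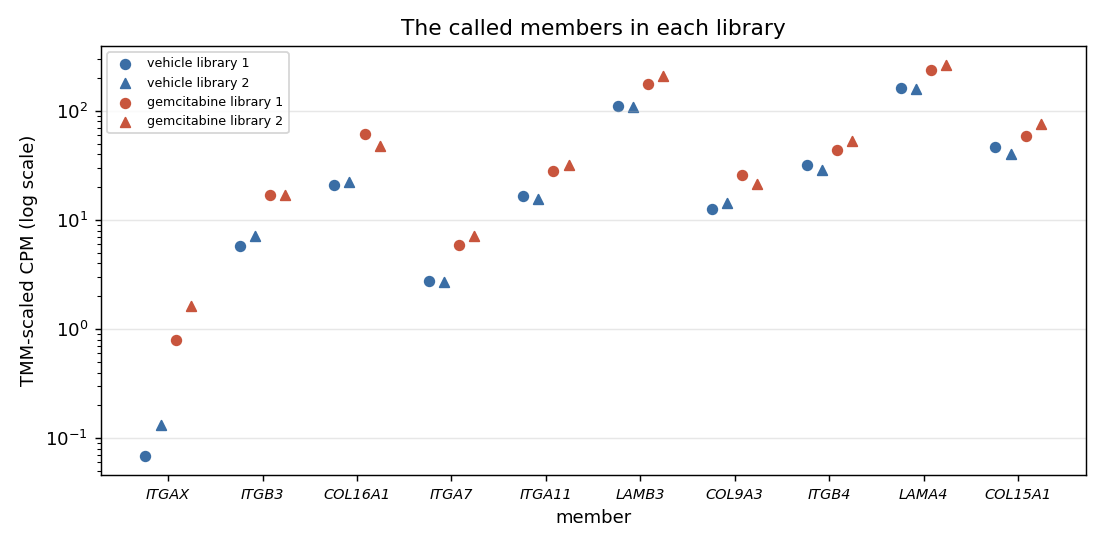
TMM-scaled CPM on a log scale of 10 called members in each library, ordered by their log2 fold change. For every one both gemcitabine points lie above both vehicle points, from ITGAX at under 2 CPM to LAMA4 at 157 to 261 CPM.

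Of the collagen receptor subunits ITGA1, ITGA2, ITGA10 and ITGA11, which pair with ITGB1, 4 of 4 rose by the adjusted p, where 18.5% of all genes did. With DESeq2, ITGA1 (adjusted p = 0.168) and ITGA10 (0.0900) did not pass, and the adjusted p was 0.05 or more in 6 of 12 alternatives for ITGA1, 7 of 12 for ITGA2 and 7 of 11 for ITGA10. ITGA11, the receptor for fibrillar collagen on mesenchymal cells, was at 3.56 and 3.06 FPKM with vehicle and at 6.43 and 8.85 FPKM with gemcitabine, a log2 fold change of 0.92 ± 0.11 (SE, adjusted p = 1.23e-05). ITGA2, the receptor typical of epithelia and platelets, was at 4.19 and 3.95 FPKM with vehicle and 4.78 and 7.33 FPKM with gemcitabine (log2 fold change 0.51, adjusted p = 0.0077), and without gemcitabine library 2 its log2 fold change was 0.20. Its neighbour ITGA1 was at 9.80 and 9.20 FPKM with vehicle and 13.2 and 14.8 FPKM with gemcitabine (log2 fold change 0.25, adjusted p = 0.0341), and shares 499 bases of exon on the same strand with PELO. ITGA10, of cartilage, had 0 and 4 fragments with vehicle and 19 and 6 with gemcitabine, a scaled ratio of 6.76 with a 95% interval of 2.34 to 26.7 from counting alone and an adjusted p of 0.0230. The common partner ITGB1 was the most abundant subunit, at 542 and 574 FPKM with vehicle and 592 and 618 FPKM with gemcitabine, and its log2 fold change on fragments was -0.02 ± 0.07.

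The laminin receptors changed in part. ITGA3 was at 113 and 130 FPKM with vehicle and 135 and 126 FPKM with gemcitabine (log2 fold change 0.08 ± 0.07), and ITGA6 at 18.8 and 18.5 FPKM with vehicle and 24.99 and 19.8 FPKM with gemcitabine (0.10 ± 0.08). Neither passed the test. ITGB4, the beta subunit that pairs with ITGA6 alone in hemidesmosomes, rose from 9.86 and 7.64 FPKM to 13.8 and 17.8 FPKM, a log2 fold change of 0.67 ± 0.10 (adjusted p = 0.000123). ITGA7, the laminin receptor of muscle, rose from 40 and 41 fragments to 81 and 98 (log2 fold change 1.26 ± 0.22, adjusted p = 0.000477), or from 0.850 and 1.66 FPKM to 3.79 and 2.97 FPKM. Its exons share 44 bases with METTL7B on the other strand.

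The subunits that bind the RGD motif of fibronectin, vitronectin and latent TGF-beta included several that rose. ITGAV, which pairs with several beta subunits, was at 17.9 and 20.4 FPKM with vehicle and at 26.8 and 29.9 FPKM with gemcitabine (log2 fold change 0.45 ± 0.08, adjusted p = 0.000483). The beta subunits that pair with it apart from ITGB1 are ITGB3, ITGB5, ITGB6 and ITGB8, and each had an adjusted p under 0.05 with a positive log2 fold change in edgeR. With DESeq2, ITGB6 (adjusted p = 0.0692) and ITGB8 (0.0792) did not pass, and the adjusted p of ITGB5, of ITGB6 and of ITGB8 was 0.05 or more in 6 of 12 alternatives each. ITGB3 rose from 1.42 and 2.04 FPKM to 5.43 and 6.25 FPKM, a log2 fold change of 1.39 ± 0.15 (adjusted p = 5.10e-06). ITGB5, the most abundant of them, was at 127 and 114 FPKM with vehicle and 129 and 158 FPKM with gemcitabine (log2 fold change 0.26, adjusted p = 0.0182), and its log2 fold change was 0.13 without gemcitabine library 2 (adjusted p = 0.0762). The ratio of ITGB5 to ITGB3 in FPKM was 89.2 and 56.1 with vehicle and 23.7 and 25.3 with gemcitabine. Its size depends on the implied length, which was 0.26 of the main transcript's for ITGB5 and 0.56 for ITGB3. In fragments ITGB5 had 2062 and 2099 with vehicle and 2125 and 2478 with gemcitabine. ITGB3 had 83 and 109 with vehicle and 233 and 232 with gemcitabine. For ITGB8 the log2 fold change was 0.38 (adjusted p = 0.0102). ITGB6, an epithelial subunit, had 35 and 46 fragments with vehicle and 69 and 69 with gemcitabine (log2 fold change 0.88, adjusted p = 0.00875), but its FPKM of 2.10 and 1.80 against 1.13 and 2.83 overlapped and limma on FPKM gave log2 fold changes of -0.11 and -0.05. The change of ITGB6 was therefore seen in fragments and not in FPKM. ITGA5, the fibronectin receptor, was at 127 and 117 FPKM with vehicle and 156 and 159 FPKM with gemcitabine (log2 fold change 0.41 ± 0.07, adjusted p = 0.000437). ITGA8 and the platelet subunit ITGA2B were at low levels, with no call.

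The subunits known from leukocytes were low, with exceptions. ITGAX, which marks dendritic cells and macrophages, had 1 and 2 fragments with vehicle and 11 and 22 with gemcitabine, or 0.00226 and 0.0593 FPKM against 0.743 and 1.38 FPKM. Its scaled ratio was 11.9 with a 95% interval of 3.73 to 60.7 from counting alone, and its log2 fold change was 3.47 ± 0.71 (adjusted p = 0.0014). Its neighbours on chromosome 16 were not called. ITGAM had 1 and 1 fragments with vehicle and 5 and 1 with gemcitabine, and ITGAD had 22 and 15 against 26 and 24 with no call. The general leukocyte marker PTPRC had 4 and 2 fragments with vehicle and 9 and 5 with gemcitabine. ITGB2, the beta partner of these subunits, was at 2.07 and 0.973 FPKM with vehicle and 2.65 and 2.04 FPKM with gemcitabine (log2 fold change 0.53 ± 0.27, adjusted p = 0.134). ITGAE, the receptor of intraepithelial T cells for E-cadherin, was listed at 47.9 and 45.9 FPKM with vehicle and 61.9 and 49.3 FPKM with gemcitabine, with no call, while its partner ITGB7 had 1 to 6 fragments and E-cadherin, CDH1, had 4 to 13. ITGAE had 509 and 540 fragments with vehicle, fewer than LAMA3 with 711 and 790, although its FPKM in these libraries was over 5 times as high. FPKM rests on the transcript to which the authors' software assigned the fragments, and levels of such genes depend on that choice. ITGA4, ITGA9 and ITGAL were under 1 FPKM, ITGA9 with 4 and 8 fragments against 0 and 2 (adjusted p = 0.0793).

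**Figure D4:**
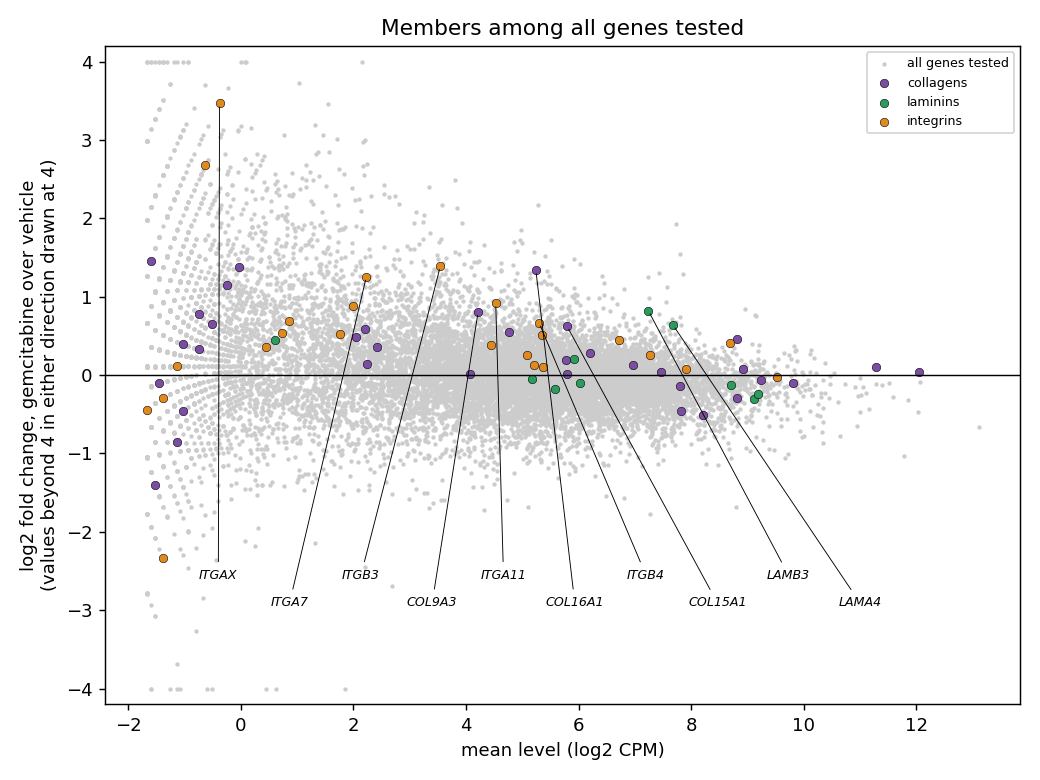
Log2 fold change against the mean level in log2 CPM for the 14853 genes tested (grey) and 70 tested members (coloured by family), with lines to the names of 10 called members. The called members all lie above zero and spread from low levels (ITGAX) to high ones (LAMB3, LAMA4), while the most abundant members lie near zero.

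In all, 41 tested members did not pass the adjusted p, 26 with a positive and 15 with a negative log2 fold change. Of these, 22 were at 1 FPKM or more, with log2 fold changes from -0.18 to 0.53. The 11 members that were not tested (COL1A2, COL6A3, COL6A5, COL9A1, COL11A1, COL17A1, COL20A1, COL22A1, COL28A1, ITGAM and LAMB4) had at most 8 fragments over the 4 libraries.

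The gemcitabine libraries differed from each other in these genes more than the vehicle libraries did. Among the 41 members with at least 100 fragments in every library, 34 (82.9%) were higher in gemcitabine library 2 than in gemcitabine library 1 on the TMM scale, against 56.6% of the 10201 genes with as many fragments. Between the vehicle libraries 20 of the 41 were higher in library 2. The median absolute log2 ratio between libraries was 0.23 for the members with gemcitabine and 0.05 with vehicle, against 0.10 and 0.07 for all such genes. COL4A1 and COL4A2 were at 426 and 519 CPM in gemcitabine library 1 and at 574 and 670 CPM in library 2, with the vehicle libraries between. COL16A1, COL7A1 and LAMA5 went the other way and were higher in library 1. The cause of this difference between the libraries was not tested.

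**Figure D5:**
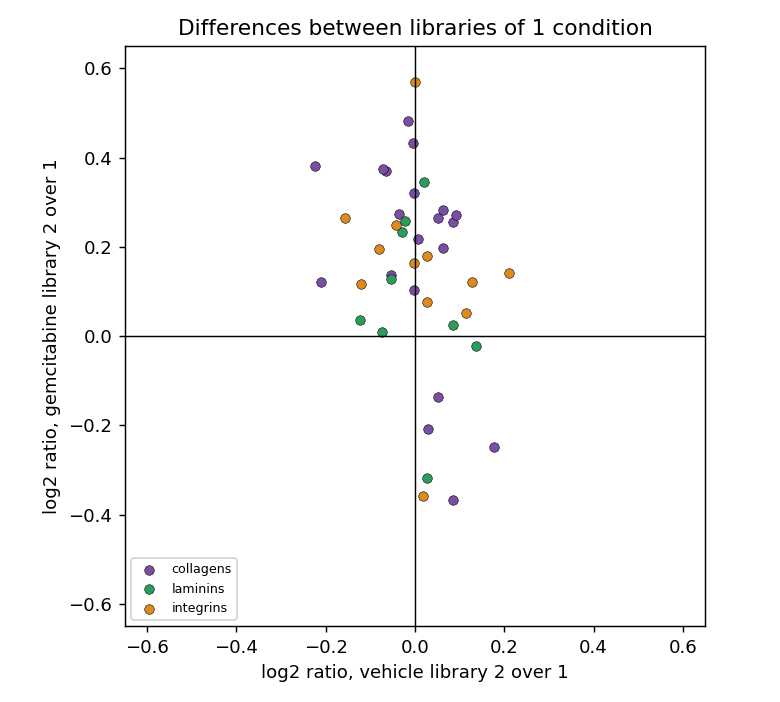
Log2 ratio of TMM-scaled CPM between the 2 libraries of a condition, vehicle on the horizontal and gemcitabine on the vertical axis, for the 41 members with at least 100 fragments in every library. The points spread from -0.22 to 0.21 on the vehicle axis and from -0.37 to 0.57 on the gemcitabine axis, where 34 of 41 lie above zero.

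Genes that act with the members were described by lists of processing enzymes, other matrix proteins, adhesion proteins and further receptors. Over all genes tested, 18.5% rose and 20% fell by the adjusted p, and 5.69% were called higher and 4.42% lower. Of 34 tested matrix proteins that bind collagens, laminins or integrins, 14 rose and 3 fell by the adjusted p, and 8 were called higher and 1 lower. Their median log2 fold change was 0.44. The called ones with the largest changes were ECM1 (log2 fold change 1.69), MATN2 (1.57), EFEMP2 (1.43), CCN2 (0.84), LUM (0.77) and BGN (0.77). Next to these, TGFBI went from 220 and 205 FPKM to 400 and 412 FPKM and FN1, fibronectin and the ligand of ITGA5, from 46.8 and 45.2 FPKM to 90.1 and 82.0 FPKM, while the microfibril gene FBN2 fell (-0.61). Of 30 tested enzymes and chaperones that fold, cut and crosslink collagen, 7 rose and 5 fell, with a median of -0.01, and LOXL4, a crosslinking oxidase, was the 1 called (1.00). Of 35 tested adhesion proteins that link integrins to actin and signalling, 10 rose and 7 fell with a median of 0.01, and NEDD9 (1.52), TNS4 (1.03), LIMS2 (0.83) and TNS2 (0.73) were called higher and FERMT1, an epithelial kindlin that activates integrins, lower (-0.67). Of 14 tested receptors other than integrins, 7 rose and 1 fell with a median of 0.23, and SDC4 (1.09) and the collagen receptors DDR1 (0.60) and DDR2 (0.59) were called higher.

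Open chromatin was read from DNaseI-seq, in which regions cut by DNaseI are called as peaks, and with 1 library per condition no test was possible. A peak overlapped the 1000 bases on either side of an annotated start site for 6 of the 82 members with vehicle (COL1A1, COL7A1, COL14A1, ITGA3, ITGA5 and ITGB5) and for 7 with gemcitabine (COL1A1, COL6A1, COL7A1, COL12A1, ITGA2B, ITGA3 and LAMB3). Among tested genes with a start site, this was 8.45% of members against 27.8% of all genes with vehicle, and 9.86% against 32.2% with gemcitabine. For ITGB5, ITGA2B and, with vehicle, COL1A1, the highest-scoring peak lay at another annotated start, over 1000 bases from the main start. These peaks were at chr3:124597318-124598302, chr17:42462305-42463144 and chr17:48276941-48277918, with main starts at bases 124606212, 42467017 and 48278992. The lists held 9606 and 10695 peaks. Peaks in both conditions were thus found at COL1A1, COL7A1 and ITGA3. Those of ITGA3 did not overlap, and lay at chr17:48132753-48133654 with vehicle and at chr17:48133775-48134547 with gemcitabine. Among members that rose, ITGA5 and ITGB5 had a peak with vehicle alone, and COL6A1 and LAMB3 with gemcitabine alone. LAMB3 was a called member with such a peak. This peak was found with gemcitabine at chr1:209826042-209826658 (GRCh37), upstream of the start at base 209825770 on the minus strand. Its score was 50.5, where the gemcitabine list had a lowest score of 50 and a median of 73.8. The gemcitabine peaks of ITGA3 (50.27) and COL12A1 (50.19) were also near the lowest score. COL1A1 had peaks in both lists, while COL3A1 and ITGB1, which are also among the most abundant members, had none. Absence of a peak at this depth says only that none was called.

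The sequences at the start of COL7A1 and at the centre of the LAMB3 peak are shown because the first had a peak in both libraries beside a member that rose and the second lies beside a called member. The promoters of COL16A1 and ITGA11, which had no peak, are shown since these had the smallest adjusted p among called collagens and among called integrin alpha subunits. The first pair is from GRCh37 (COL7A1 chr3:48632763-48633012, LAMB3 chr1:209826226-209826475), the second from the RefSeq promoter table on GRCh38.p14 as the 250 bases before the start (COL16A1 chr1:31704018-31704267, ITGA11 chr15:68432164-68432413), all on the minus strand and 5′ to 3′. Capitals mark matches to the GC box, the CCAAT box or the AP-1 site on either strand.
COL7A1: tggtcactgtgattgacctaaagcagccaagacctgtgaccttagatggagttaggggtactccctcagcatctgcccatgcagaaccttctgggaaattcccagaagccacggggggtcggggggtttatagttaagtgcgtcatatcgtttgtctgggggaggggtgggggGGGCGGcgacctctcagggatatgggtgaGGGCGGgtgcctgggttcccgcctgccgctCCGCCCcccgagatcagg
LAMB3: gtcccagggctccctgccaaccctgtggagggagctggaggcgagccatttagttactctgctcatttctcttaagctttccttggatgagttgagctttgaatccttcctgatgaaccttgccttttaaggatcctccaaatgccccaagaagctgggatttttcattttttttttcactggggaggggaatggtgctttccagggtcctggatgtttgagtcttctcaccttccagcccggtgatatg
COL16A1: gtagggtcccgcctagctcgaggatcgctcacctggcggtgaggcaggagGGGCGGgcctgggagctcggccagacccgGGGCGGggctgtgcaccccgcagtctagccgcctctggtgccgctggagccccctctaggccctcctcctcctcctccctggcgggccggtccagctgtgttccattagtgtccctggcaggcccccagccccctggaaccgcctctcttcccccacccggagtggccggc
ITGA11: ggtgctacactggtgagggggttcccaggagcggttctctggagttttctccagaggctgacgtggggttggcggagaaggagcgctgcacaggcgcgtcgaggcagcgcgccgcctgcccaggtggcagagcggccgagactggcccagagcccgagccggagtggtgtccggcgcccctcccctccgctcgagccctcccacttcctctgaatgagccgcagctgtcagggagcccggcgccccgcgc
The COL7A1 window holds 3 matches to the GC box GGGCGG, the COL16A1 promoter 2, and the LAMB3 and ITGA11 windows none, while CCAAT and the AP-1 letters TGANTCA are in none of the 4.

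A promoter was listed in the RefSeq set for 58 of the 82 members. The first promoter listed for each symbol was used, which gave 27305 in the whole set. That set is larger than the 20461 genes of the RNA data and was not limited to them. GGGCGG was in the 250 bases before the start of 31 of the 58 (53.4%), against 42.3% of the 27305. CCAAT was in 13 (22.4%, against 33.0%) and TATAAA in 6 (10.3%, against 11.1%). TGANTCA was in 1, that of LAMA3 (1.72%, against 6.60%). All 4 were searched on both strands, and each was counted on its own where matches overlapped. Members with a mean of at least 1 FPKM over the libraries had a median of 17.5 CpG in the window (34 promoters) and those below it 10.5 (24 promoters), against 11 over the whole table. A match describes these letters in this window and was not tested as a binding site.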

How the data were processed

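RNA-seq of PANC1 cells comprised 2 vehicle and 2 gemcitabine libraries, and DNaseI-seq 1 of each. Single-end RNA reads were mapped by the authors to hg19 (GRCh37) with TopHat2 2.0.8 and assigned with Cuffdiff 2.0.2 to protein-coding genes of Gencode V15 with at least 10 reads. Their deposited table holds estimated counts (fragments per gene and library, not normalized) and FPKM. DNaseI peaks were called by the authors with MACS at a p-value of 1e-05, and the deposited score of a peak ranks it within its list.

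Members were found by Ensembl ID and current symbol (19619 genes matched, 842 did not). Estimated counts were rounded (9 members had fractional values), and 14854 genes that had 10 fragments or more in all entered a quasi-likelihood test in edgeR 4.0.16 (R 4.3.3, 2-sided, TMM scaling, no covariate, Benjamini-Hochberg over all genes tested). The common biological coefficient of variation was 0.0522. The criteria for a call are those of the study, with edgeR in place of Cuffdiff's test and the fold taken from TMM-scaled fragments in place of FPKM. SE was derived from the fold change and F. The test was also run on simulated counts with known folds, and no result given here rests on that run. Exact 95% intervals for ratios of low counts cover counting error only. Start sites came from a Gencode annotation lifted to GRCh37, later than the authors'. Values at low depth are limited by 3 fragments, or 0.190 to 0.227 CPM.

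Named with values are called members, the 12 collagens, 6 laminins and 10 integrins highest in FPKM, and neighbouring members; other members are given by fold and adjusted p, or by range. The values of 1 member are not reported here, and it stands in counts alone. Members and lists were chosen with earlier results of these data known. Alternatives were DESeq2 1.42.0, other scalings and filters, limma 3.58.1 on log2 of FPKM with pseudocounts of 1 and 0.1, each library left out, and other peak rules.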

Additional observations from a re-analysis of the deposited data

How the results depend on the processing

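The 11 calls were made by DESeq2, DESeq2-type size factors, no filter, edgeR's own filter and an adjusted p under 0.01. Library totals added COL6A2 and ITGA2. By an adjusted p under 0.05, 18 members were higher and 3 lower with DESeq2, 29 and 2 with library totals, and 21 and 3 with no filter. With limma on log2(FPKM + 1) without a filter there were 0 higher, 0 lower and 0 called, and 0 of all genes were called, while 19 members were higher and 0 lower at an unadjusted p under 0.05. With a filter at 0.1 FPKM and either pseudocount, 7 members were called (6 of the 11, and COL7A1), 9 were higher and 0 were lower by the adjusted p (20 or 21 higher and 0 lower unadjusted). With each library left out in turn, called members ranged from 6 to 13 higher and 0 to 2 lower, and those past the adjusted p from 12 to 29 higher and 0 to 11 lower. Members with a peak at a start site numbered 10 (vehicle) and 13 (gemcitabine) within 5000 bases, and 0 and 1 at a score of at least 100.

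Signs were followed for members that passed the adjusted p, were among the highest in FPKM or neighboured another member. Among these, log2 fold changes that turned sign belonged to members that had not passed the test, apart from ITGB6. The remaining members, LAMA1 among them, were not followed. With library totals COL4A2 was at 0.047, COL5A1 at 0.014 and ITGB1 at 0.088. With limma, COL4A2 was at 0.24, COL5A1 at 0.027, COL5A2 at -0.031 (-0.0058 with the smaller pseudocount), ITGB1 at 0.12 and ITGB6 at -0.046 (-0.11). Without gemcitabine library 2, COL1A1 was at -0.035, COL3A1 at -0.058, COL4A1 at -0.15, COL4A3 at -0.035, COL4A5 at -0.11 and COL4A6 at -0.0029. Without gemcitabine library 1, COL4A2 was at 0.11, COL5A1 at 0.038, ITGAE at -0.057, ITGB1 at 0.067 and LAMB1 at 0.032. Without vehicle library 2, ITGB1 was at 3.46e-05. With a library left out, log2 fold changes reached 0.10 for COL1A1, 0.26 for COL3A1, 0.28 for COL4A1, 0.067 for COL4A3, 0.17 for COL4A5, 0.26 for COL4A6 and 0.30 for ITGAE at the upper end, and -0.25 for COL4A2, -0.24 for COL5A1, -0.11 for ITGB1 and -0.31 for LAMB1 at the lower end. The cause of these turns was not tested. A library left out leaves 1 in its condition, which is assumed to vary like the other condition. No paired analysis was possible because the table's index of libraries does not say which labelled replicate each one is. ITGAX, ITGA10 and COL2A1 rest on 3 to 14 vehicle fragments in all, and counting error limits their folds.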
